A study of Mus musculus with 2 samples.

Results

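Among 4543 droplet barcodes kept from the mouse lower incisor, 134 (2.95%, exact 95% interval 2.48 to 3.48) formed the mesenchymal population described here, which was chosen by the UMI counts of Ogn, Thbs2, Dpep1 and Igf1. A UMI, or unique molecular identifier, marks 1 captured RNA molecule. Kept barcodes had at least 500 detected genes, at most 20% mitochondrial and at most 5% haemoglobin UMIs. The chosen ones had no UMI of the leukocyte gene Ptprc and at most 1 UMI each of the epithelial pair Epcam and Cdh1 and of the endothelial pair Cdh5 and Pecam1. The sum over Ogn, Thbs2, Dpep1 and Igf1 had to reach 4 UMIs and exceed 4 other sums. These were Fmod, Rdh10, Col9a2 and Nell2, then Sct, Col24a1, Ifitm5 and Fam20a, then Lypd1, Col8a2, Ecel1 and Foxd1, and last Tac1, Coch, Trpm1 and Ptprz1. A final step required at most 2 UMIs over Spock1, Srpx2, Ndnf and Epha3. It split 341 barcodes into the 134 and into 207 neighbours, called Spock1 cells below. The 4 other sums gave 141 Fmod, 423 Sct, 190 Lypd1 and 243 Tac1 cells, 997 in all.

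The tissue came from untreated C57BL/6 mice aged 4 weeks, with no transgene or other allele named. Incisor pulp was isolated together with dental epithelium, although the labels give the tissue as dental mesenchyme, and was digested with collagenase before barcoding with 10x Genomics 3′ v3 chemistry. The 2 samples are lanes of what was deposited as 1 matrix, so lanes could not be told apart and the number of animals is not given. With 1 sample there is no replicate error: intervals cover counting error only, no p-value is given, and every difference is a description of these cells.

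The dental follicle is the loose mesenchyme around a growing tooth. Its cells lie between tooth and bone, give rise to periodontal ligament, cementum and bone-forming cells, and send signals that permit bone resorption and eruption. Acta2, the smooth muscle actin, is known both from contractile cells of vessel walls and from progenitor cells of this tissue.

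The 134 barcodes held 751378 UMIs, with a median of 5197.5 per cell (746 to 18941) and a median of 1974.5 genes. The Spock1 cells had a median of 7749 UMIs and the 997 cells of the other programmes 8901. Amelx, which encodes the enamel matrix protein amelogenin, had a UMI in 83.6% of the 134, in 78.1% of macrophage cells and in 84.6% of endothelial cells, so enamel RNA was spread through the droplets. Barcodes with at least 5% enamel-gene UMIs numbered 66 of the 423 Sct cells and 0 of the 134. Doublets were not removed, and a Scrublet score above 0.15 marked 7 of the 134 (5.22%), 1 Spock1 cell and 12 of the 997.

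The data went against the label for 11 of the 134. These barcodes carried 38 to 189 UMIs (median 87) of C1qa, C1qb and C1qc, the complement genes of tissue macrophages, whereas none of the other 123 carried more than 1. All 11 also had UMIs of Csf1r, the receptor for macrophage growth factor, of Mrc1, a mannose receptor, and of Cd68, a lysosomal protein. Over the 11 together there were 2 UMIs of Ogn, 1 of Dpep1, 0 of Thbs2, 0 of Acta2 and 3 of the bone and skin collagen Col1a1. They entered through Igf1 alone, with 4 to 7 UMIs each. Igf1 was also detected in 50.8% of the 297 macrophage cells of the series (Ptprc present, C1q sum at least 4, median 5406 UMIs). Ptprc was 0 in 273 of the 567 barcodes with a C1q sum of at least 4 and few epithelial or endothelial UMIs, and 12 of the 273 had an Igf1 count of at least 4. At the edge of the rule, 17 of the 21 barcodes with an Ogn sum of 3 carried C1q RNA, against 6 of 14 at a sum of 4 and 1 of 7 at a sum of 5. One further barcode carried neutrophil RNA. The 134 are called Ogn Igf1 cells below after 2 of the genes that chose them, although the 11 carried almost no Ogn, and values are repeated without such barcodes wherever the difference matters. That cleaned set has 122 Ogn Igf1 cells, 204 Spock1 cells and 916 cells of the other programmes, the last also without enamel-rich barcodes.

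**Figure D1:**
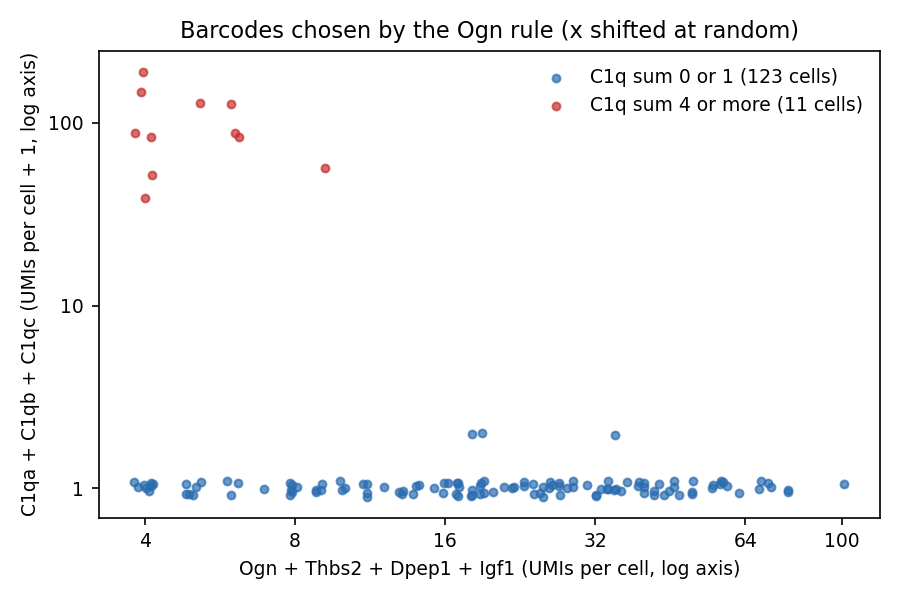
UMIs of the 4 choosing genes (x, log axis) against UMIs of C1qa, C1qb and C1qc plus 1 (y, log axis) in the 134 chosen barcodes, 1 point each with a small random shift. The 11 barcodes with 38 to 189 C1q UMIs lie at the low end of the choosing sum and apart from the other 123, which have 0 or 1.

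In the 123 barcodes without C1q RNA the choosing sum had a median of 20 UMIs (4 to 101). Igf1, a secreted growth factor, gave 51.1% of it (median 9 UMIs per cell, highest 75), and Ogn, the small proteoglycan osteoglycin, gave 26.4% (median 5, highest 39). All 4 genes were detected in 71 cells, 3 in 40, 2 in 10 and 1 in 2. These counts describe the choice of cells, since the same genes chose them.

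The label names 3 genes that the rule did not use. The label itself was drawn from these same data, so their levels describe the label and do not test it. Acta2 (chr19:34240336-34255585) stood at 522 CPM (UMIs scaled to the total of the group; exact Poisson 95% interval 471 to 576) in the 134 cells and at 262 (239 to 287) in the Spock1 cells. In the other programmes Acta2 was at 1.83 CPM in Fmod cells, 0.170 in Sct cells, 0.980 in Lypd1 cells and 1.31 in Tac1 cells. Tagln (chr9:45929628-45936058), which encodes the actin-binding protein transgelin, was at 763 CPM (701 to 828) in the Ogn Igf1 cells, 604 (569 to 641) in the Spock1 cells and 0.681 to 5.50 in the 4 other groups. Adgrg6 (chr10:14402583-14545723), an adhesion receptor coupled to G proteins that binds matrix collagen and laminin, was at 299 CPM (262 to 341), 178 (159 to 198) and 0 to 0.917. All 3 genes thus stood high in both Ogn groups and near 0 in the rest. The intervals of the Ogn groups and the rest did not overlap, but they cover counting error only. Positions are those of RefSeq on GRCm38.p6.

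Acta2 had a UMI in 34.3% of the 134 cells, against 6.06% of macrophage cells at a similar median depth and 9.64% of epithelial cells at a median of 11280.5 UMIs. After each cell was thinned to 2000 UMIs these shares were 28.0%, 3.64% and 3.94%. Cells with fewer UMIs were left out of thinned shares, which kept 118 of the 134. Droplets of 1 to 20 UMIs, which hold mostly free RNA, had Acta2 at 117 CPM. Adgrg6 was detected in 53.0% of the 134 cells, 1.01% of macrophage cells and 21.5% of endothelial cells. Most of the cells named for Acta2 thus showed no UMI of it at this depth.

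**Figure D2:**
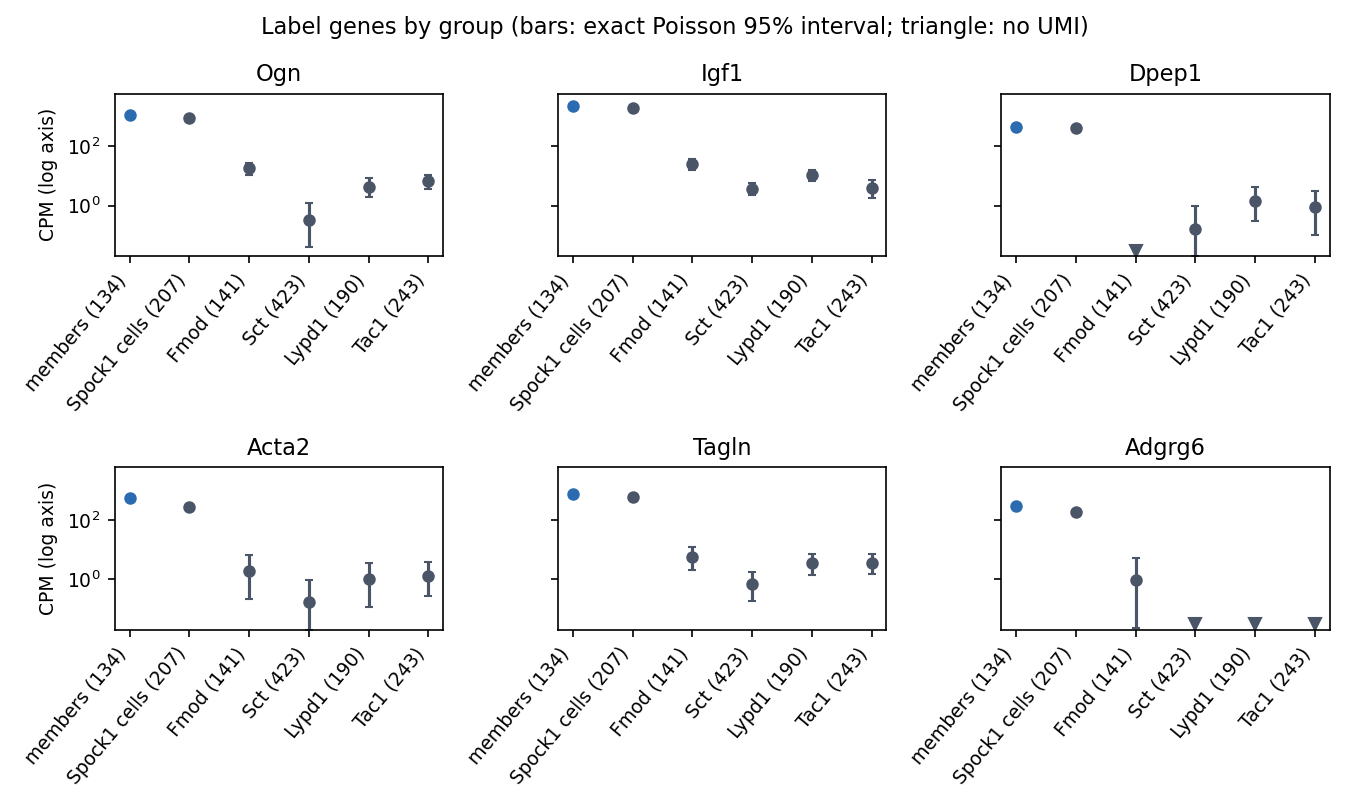
CPM (log axis) of the 6 label genes in the 134 Ogn Igf1 cells (members, blue) and in the 5 other groups, with exact Poisson 95% intervals and a triangle where no UMI was found. Acta2, Tagln and Adgrg6 reach 299 to 763 CPM in the Ogn Igf1 cells, 178 to 604 in the Spock1 cells and at most 5.50 elsewhere. Ogn, Igf1 and Dpep1 were used to choose the cells.

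Marker lists were compared with the label. The 9 smooth muscle markers summed to 1505 CPM in the Ogn Igf1 cells, 992 in the Spock1 cells and 17.2 in the other programmes. Most of the 1505 CPM came from the label genes Acta2 and Tagln, at 522 and 763 CPM, so the sum largely repeats them. Des, the muscle filament desmin, and Actg2, the visceral smooth muscle actin, had no UMI. The 9 pericyte markers summed to 217 CPM, against 213 in the Spock1 cells, 80.5 in the other programmes and 524 in endothelial cells. Without the C1q barcodes they summed to 247 CPM. Pdgfrb alone was then at 167 to 188 CPM in the classes of Acta2 count described later. Higd1b and Vtn were at 0 and Rgs5, a regulator typical of pericytes, had 9 UMIs in 5 cells. The 9 dental follicle markers summed to 1544 CPM against 43.7 in the other programmes, with the tendon regulator Scx at 0 and Tnmd, its tendon membrane target, at 3 UMIs. Endothelial markers summed to 6.65 CPM, odontoblast markers to 31.9, cartilage markers to 22.6, glial markers to 17.3 and skeletal muscle markers to 6.65. Macrophage markers summed to 1738 CPM, and to 10.6 without the C1q barcodes. Epithelial and erythroid markers, at 568 and 898 CPM, were present in every group, with the erythroid sum at 575 to 912 CPM in the 5 others.

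Across all genes, 11465 had at least 30 UMIs over the Ogn Igf1 cells and the 997 cells of the other programmes. The Ogn Igf1 cells had 17.5% of them higher by 2-fold or more and 12.5% lower by as much (2010 and 1432 genes, median log2 ratio 0.10). With TMM scaling the split was 1408 higher and 2093 lower, because all ratios moved by -0.31 on the log2 scale. In the cleaned groups 16.2% were higher and 14.2% lower, and without the C1q barcodes alone 16.7% and 13.6%. The rule used this contrast, so the counts that follow are given beside these shares as a description. Genes are named by the size of their ratio within lists, and a few that were picked after their values were seen are marked.

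Contractile genes were high as a group. Of 25 measured genes of the contractile list 21 were at least 2-fold higher and 1 lower, with a median log2 ratio of 1.93, and the cleaned groups gave the same counts. Acta2 led with a log2 ratio of 9.52 (8.53 to 10.75). Tagln followed at 8.43 (7.85 to 9.07). Both are label genes and are counted among the 21. Myh11, the smooth muscle myosin heavy chain, was at 43.9 CPM against 0.177, but in only 12.7% of the cells. Mylk, the kinase that switches on myosin light chain, was at 108 CPM against 0.885. Of genes picked after their values were seen, Myl9, the light chain itself, had 744 CPM against 22.9 in the other programmes. Tpm1, a tropomyosin laid along actin filaments, had 1537 CPM against 162. Vcl, the focal adhesion protein vinculin, and the calponin gene Cnn2 had log2 ratios of 2.74 and 1.68.

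Many contractile genes carry a CArG box near their start, the short element bound by serum response factor. Windows of 250 bases before to 50 bases after the RefSeq start (GRCm38.p6) were searched on both strands. A CArG box was present for 488 of 27025 genes with a window (1.81%) and for 7 of the 25 genes of the contractile list with one (28.0%, of 34 listed). The 7 were Acta1, Actc1, Cnn2, Myl6, Myl9, Srf and Vcl. Of these, Acta1 and Actc1 had no UMI in the barcodes without C1q RNA. Srf had too few UMIs to be measured in the later comparison of Acta2-rich cells. The window of Acta2 itself held no match, which says only that these letters are not in that window. Tagln, Csrp1, Tpm2, Cald1 and Actn1, which were also at least 2-fold higher in the Acta2-rich cells described later, were not among the 7. The following 50-base stretches are shown because their genes were at least 2-fold higher both here and in those Acta2-rich cells. Capitals mark the CArG box, all 4 read 5′ to 3′ on the strand of the gene.
Cnn2: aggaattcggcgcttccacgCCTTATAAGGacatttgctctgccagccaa
Myl6: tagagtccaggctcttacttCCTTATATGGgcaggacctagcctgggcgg
Myl9: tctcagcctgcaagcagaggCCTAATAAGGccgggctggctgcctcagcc
Vcl: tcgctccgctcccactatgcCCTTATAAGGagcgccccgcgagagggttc
They lie at chr10:79988524-79988573 (+) for Cnn2, chr10:128493030-128493079 (-) for Myl6, chr2:156775283-156775332 (+) for Myl9 and chr14:20929151-20929200 (+) for Vcl. The boxes start 56, 50, 161 and 227 bases before the start of their genes. A match is a description of sequence and not a bound site.

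Follicle and ligament genes were high in part. Of 19 measured genes of that list 13 were higher and 2 lower (median 2.59). Bmp3, a member of the BMP family that antagonises its relatives, was at 375 CPM in the Ogn Igf1 cells, 308 in the Spock1 cells and 2.83 in the other programmes. Postn, the ligament protein periostin, was at 377, 225 and 9.83 CPM, a log2 ratio of 5.26 (4.94 to 5.59) over the other programmes. Pthlh, the hormone-like factor needed for eruption, was at 86.5, 173 and 9.12 CPM. Lum, the proteoglycan lumican, was one of the lower genes at 909 CPM against 2346. Of 7 measured small leucine-rich proteoglycan genes 1 was higher and 2 lower, but the higher gene was Ogn, which chose the cells. Without Ogn and Fmod, both used by the rule, 0 of 5 were higher. Dcn, the related decorin, stood at 132 CPM against 627.

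Of 21 measured collagen genes 11 were higher and 1 lower (median 1.88). Col3a1, the collagen of pliable tissues, was at 7327 CPM against 155, a log2 ratio of 5.56 (5.48 to 5.64), and Col4a1, of basement membranes, at 479 against 6.29. Col1a1 differed little, at 11310 CPM against 10261. Col8a1, a short-chain collagen of vessel walls, was at 132 CPM against 0.708. Of 22 elastic fibre and crosslinking genes 13 were higher and 3 lower, and Ltbp4, which anchors latent TGF-beta to elastic fibres, was at 237 CPM against 3.10. Of 17 matricellular genes 11 were higher and 2 lower, or 10 and 2 of 16 without the choosing gene Thbs2, among them Smoc2, a calcium-binding matrix protein, at 266 CPM against 2.92. Of 30 matrix protease and inhibitor genes 20 were higher and 6 lower. The aggrecan-cleaving proteases Adamts5 and Adamts9 were at 94.5 and 311 CPM against 2.83 and 10.7. Integrin, cadherin and laminin genes gave 19 higher and 4 lower of 31, with Nid1, a linker of basement membranes, at 1003 CPM against 60.5.

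IGF genes were high. Of 16 measured genes 11 were higher and 0 lower, with a median log2 ratio of 2.82, and without the choosing gene Igf1 10 of 15 were higher (median 2.74). These included binding proteins that hold the factor outside cells. Igfbp5 was at 484 CPM against 1.95, Igfbp3 at 689 against 6.37 and Igfbp2 at 83.8 against 0.266. Igf1r, the receptor of IGF1, was picked outside the naming by ratio and had a log2 ratio of 0.18. Igfbp2 came from few cells, with 9.70% of the 134 having a UMI. Against the Spock1 cells 2 of 15 IGF genes were higher and 0 lower (median 0.11), beside 3.43% higher over all genes. The high level of the list was thus shared by both Ogn groups.

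WNT genes were mixed, with 13 higher and 9 lower of 31 (median -0.08). The higher ones included 3 secreted modulators of WNT signalling. Dkk2 was at 218 CPM against 0.974, Sfrp2 at 1825 against 18.8 and Sfrp4 at 83.8 against 1.95. The ligand gene Wnt6 was at 2.66 CPM against 146, and Notum, an enzyme that inactivates WNT ligands, at 13.3 against 399. BMP genes gave 5 higher and 5 lower of 22. The ligand genes Bmp2 and Bmp4 were at 3.99 and 26.6 against 72.6 and 210.3. FGF genes were mostly low, with 1 higher and 9 lower of 16 (median -1.29). The exception was Fgfr2, a receptor, at 170.3 CPM against 9.38, whereas the ligand gene Fgf3 and the feedback genes Spry4 and Etv4 were at 3.99, 2.66 and 5.32 CPM against 47.0, 26.1 and 43.7. Hedgehog genes gave 2 higher and 2 lower of 12, but 3 and 0 of 11 in the cleaned groups. Hhip, a decoy receptor, was at 427 CPM against 7.08, and the co-receptor Gas1 at 186 against 10.2. The transcriptional target Gli1 was at 26.6 CPM against 37.8.

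Of 22 TGF-beta and activin genes 11 were higher and 2 lower. Bambi, a decoy receptor of the family, was the most different at 81.2 CPM against 1125. Vessel and nerve growth factor genes gave 11 higher and 4 lower of 20. Cxcl12, a chemokine that retains blood-forming cells in the marrow, was at 354 CPM against 6.73 and in 67.2% of the cells. Angpt1, which steadies vessel walls, was at 121 CPM against 3.28. Ntn1, the axon guidance factor netrin, was at 110.5 CPM against 0.354, and axon guidance genes as a list gave 16 higher and 8 lower of 35, or 15 and 8 of 34 without Epha3, which the rule used. Ccl2 and Ccl7, chemokines for monocytes, had log2 ratios of 6.97 and 7.49. In the cleaned groups those were -0.30 and 1.39, so they rested on the C1q barcodes.

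Transcription factor genes gave 11 higher and 12 lower of 39, or 11 and 11 of 38 without Foxd1, which the rule used. Runx2, needed for osteoblasts, was at 345 CPM in the Ogn Igf1 cells, 385 in the Spock1 cells and 41.3 in the other programmes. Foxf2, a forkhead factor of neural crest mesenchyme, was at 268 CPM against 13.6, and Msx2, a homeobox factor of tooth papilla and bone, at 17.3 against 256. Mineralisation genes were low, with 1 higher and 14 lower of 17 (median -3.67). The rule used Fam20a, Ifitm5 and Col24a1 to define a group of the other programmes, and without them 11 of 14 were lower and 1 higher (median -2.93). Bglap, the bone protein osteocalcin, was at 9.32 CPM against 1803, a log2 ratio of -7.60 (-8.91 to -6.55), and Dspp, the dentin matrix gene, at 2.66 against 83.7. Alpl, the phosphatase needed for mineral, was within 2-fold at 282 CPM against 172.

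Cell cycle genes were low as well, with 2 higher and 34 lower of 43 (median -1.56). Mki67, a protein of dividing cells, was at 18.6 CPM, and 64.3% of its 14 UMIs came from the C1q barcodes. Of the 123 other cells 3 had a Mki67 UMI. After thinning to 2000 UMIs 1.69% of the 118 cells of at least that depth had one, against 9.64% of the other programmes. These values moved with the final step of the rule, and the cause was not tested. With the Spock1 sum limited to 4 per 10000 UMIs in place of 2 UMIs, 12 of 44 cell cycle genes were lower (median -0.69). Over all genes 1169 of 11517 were lower under that split. The log2 ratio of Mki67 was -0.10 in place of -1.69.

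The remaining lists gave smaller groups. Receptor genes of the adhesion G protein-coupled family gave 5 higher and 0 lower of 9, led by the label gene Adgrg6. Membrane peptidase genes gave 5 higher and 1 lower of 9, or 4 and 0 of 7 without Dpep1 and Ecel1, which the rule used. Retinoic acid genes gave 6 and 1 of 13 (6 and 1 of 12 without Rdh10, which the rule used), Notch genes 2 and 4 of 13 and pericyte genes 3 and 2 of 10. Markers used for mesenchymal stem cells gave 10 higher and 2 lower of 19, among them Acta2 and Cxcl12 again. Immune and osteoclast ligand genes gave 7 higher and 1 lower of 13, but 3 and 2 of 9 in the cleaned groups. Dissociation response genes gave 7 higher and 2 lower of 22, but 2 and 1 in the cleaned groups.

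**Figure D3:**
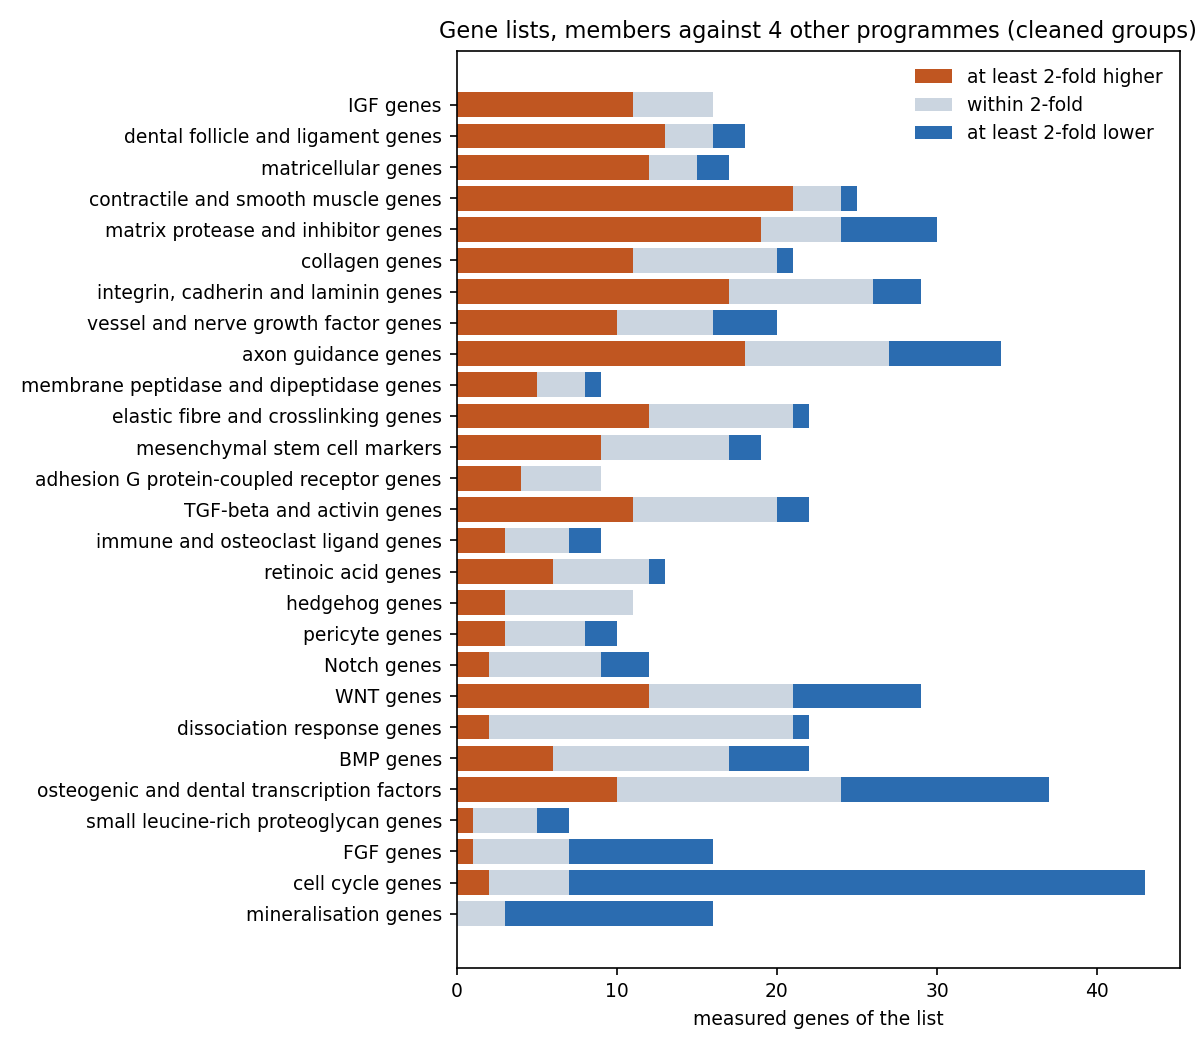
Measured genes of each list (x, number of genes) that were at least 2-fold higher, within 2-fold or at least 2-fold lower in the 122 cleaned Ogn Igf1 cells than in the 916 cleaned cells of the other programmes. Contractile, IGF and matricellular genes lie mostly on the higher side, and mineralisation, cell cycle and FGF genes on the lower side.

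Acta2 was not shared evenly among the Ogn Igf1 cells. Of the 123 cells without C1q RNA 77 had no Acta2 UMI, 28 had 1 or 2 and 18 had 3 or more, with a highest count of 70. The 18 cells held 355 of 392 UMIs, and the 10 highest cells held 79.3%. In the Spock1 cells the 10 highest of 207 cells held 48.1%. Median depth was 4486 UMIs in the 77 cells, 6088.5 in the 28 and 5215.5 in the 18.

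Other contractile genes were higher in the Acta2-rich cells. Between the 18 and the 77 cells, 2329 genes were measured and 5.41% were at least 2-fold higher in the 18 (4.98% lower, median 0.04). Of 17 contractile genes other than Acta2, 9 were higher and 0 lower, with a median log2 ratio of 1.03. Tagln had 2.67 (2.39 to 2.95), at 2740.2 CPM against 431 and at 745 in the 28 cells between. Vcl had 1.95 (1.31 to 2.59). Csrp1, a LIM protein of the actin cytoskeleton, had 1.70, and Myl9 had 1.55. The 5 others were Tpm2, Cald1, Actn1, Cnn2 and Myl6, at 1.03 to 1.37. Genes outside the contractile list were higher too, and 2 of them lay above Tagln. Apoe, a lipid carrier, had 3.15 (2.68 to 3.64) and Sfrp2 3.08 (2.88 to 3.29). Igfbp3 had 1.82 (1.54 to 2.11), and Adgrg6 had 1.40 (0.93 to 1.87), at 658 CPM against 249. The choosing genes Ogn and Igf1 had 0.04 and 0.28.

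Over the 123 cells the Pearson correlation of Acta2 with Cnn1, a calponin of smooth muscle, was 0.53. Cnn1 had 14 UMIs in the 18 Acta2-rich cells, 5 in the 28 and 0 in the 77, too few to count as measured. The correlation was 0.49 with Tagln, 0.44 with Myl9, 0.30 with Tpm2, 0.22 with Myh11 and 0.08 with Mylk. With genes outside the contractile list it was 0.31 for Sfrp2, 0.26 for Igfbp5, 0.25 for Igfbp3, 0.15 for Adgrg6 and 0.04 for both Ogn and Igf1. These ranges overlap, and the cells share 1 matrix and differ in depth.

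**Figure D4:**
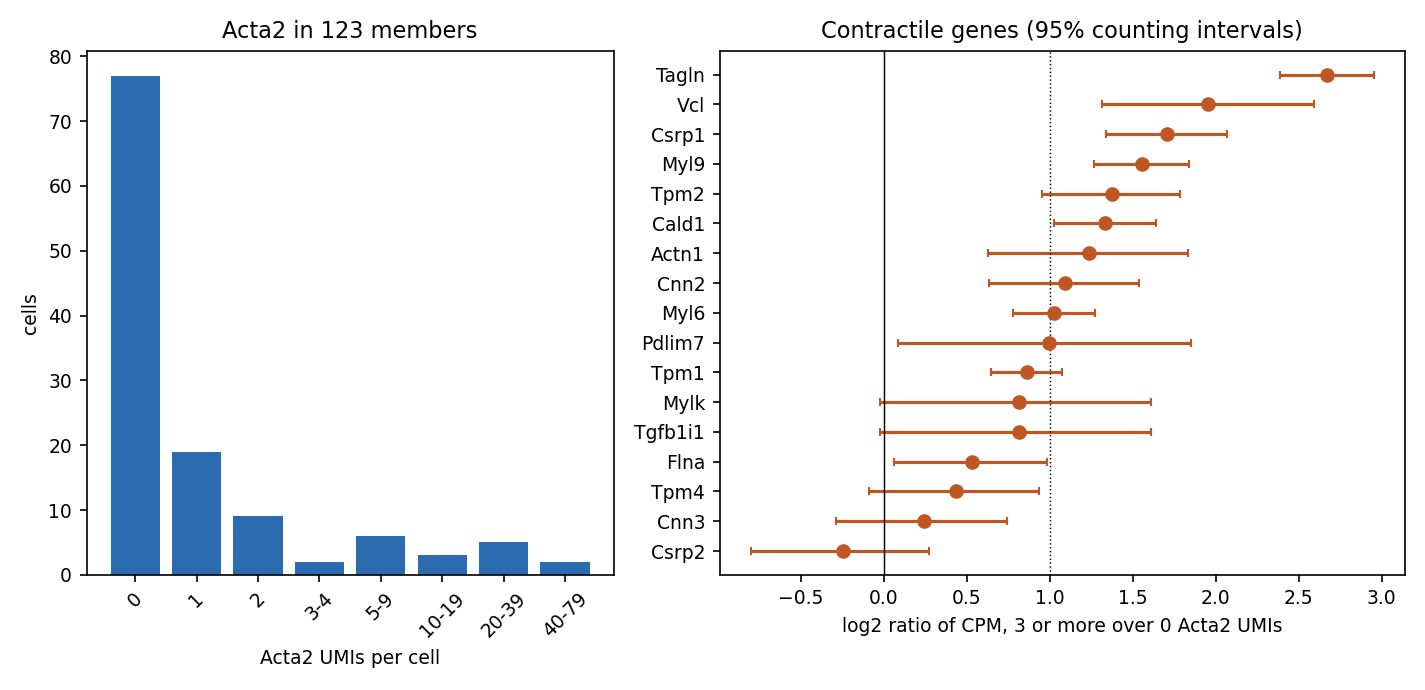
Left, number of cells (y) by Acta2 UMIs per cell (x) among 123 Ogn Igf1 cells without C1q RNA. Right, log2 ratio of CPM of contractile genes in the 18 cells with 3 or more Acta2 UMIs over the 77 cells with none, with 95% counting intervals, a solid line at 0 and a dotted line at 2-fold. Tagln, Vcl and Csrp1 lie highest and Csrp2 is the only gene below 0.

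Clustering of the 134 cells without the choosing genes gave 4 clusters, of 62, 44, 17 and 11 cells, and the last held exactly the 11 C1q barcodes. Median depth in the first 3 was 5040.5, 5197.5 and 4486 UMIs. Clusters are described by the genes that formed them. The cluster of 17 cells led with Sfrp2, at 12812 CPM against 296 and 528 in the clusters of 62 and 44, and held 1139 of the 1367 Sfrp2 UMIs of the 123 cells. It also held 239 of 392 Acta2 UMIs (2688 CPM) and 355 of 516 Igfbp3 UMIs. Pcp4, a calmodulin-binding peptide, was at 1901 CPM against 109 and 23.8, and Fbln1, the matrix protein fibulin 1, at 1271 against 74.9 and 119. All 9 Rgs5 UMIs of the 123 cells and 54 of 63 Igfbp2 UMIs fell here. In the same 17 cells Adgrg6 had 2 UMIs (22.5 CPM against 378 and 397), Bmp3 had 2 and Tnn, the ligament protein tenascin N, had 0 of 124. Col1a1 was at 4218 CPM there against 12294 and 16597, and Col3a1 at 4387 against 8437 and 9569. Of the 18 Acta2-rich cells 8 lay in this cluster, 6 in the cluster of 62 and 4 in that of 44.

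The choosing genes were not used to cluster but differed as well. Dpep1, a membrane dipeptidase, was found in all 17 cells at 922 CPM, against 365 and 568, and Thbs2, the matrix protein thrombospondin 2, was at 202 CPM against 627 and 651. The cluster of 44 cells led with Ncam1, a neural and mesenchymal adhesion molecule, at 1576 CPM against 521 and 979 in the clusters of 62 and 17. Alpl followed at 480 CPM against 222 and 225, together with the fibre-associated collagen Col12a1 at 484 against 300 and 90.0. The cluster of 62 led with Fabp5, a fatty acid carrier, at 739 CPM against 290 and 146, and with Bmp3 at 599 against 349 and 22.5. It held all 7 cells with a Scrublet score above 0.15. Whether doublets bear on its leading genes was not tested.

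The Spock1 cells were the nearest group. Of 8048 measured genes 3.43% were higher by 2-fold or more in the Ogn Igf1 cells and 3.38% lower by as much (276 and 272 genes). The shares were 1.6% and 3.8% without the C1q barcodes, and 1.58% and 3.58% in the cleaned groups (122 and 276 genes). Acta2 had a log2 ratio of 0.99 (0.80 to 1.19), and 1.14 (0.95 to 1.34) in the cleaned groups. Its share of cells ran the other way before thinning, at 34.3% against 43.0%, and at 28.0% against 21.2% after it. The 10 highest cells held 79.3% of the Acta2 UMIs of the 123 cells without C1q RNA, and 48.1% in the Spock1 cells. The intervals do not cover this unevenness. Mylk was just past 2-fold higher at 108 CPM against 50.3, a log2 ratio of 1.10. That ratio was 0.92 after thinning to 2000 UMIs and 0.80 with the split scaled to depth. Tagln was within 2-fold at 0.34. Of 25 contractile genes 2 were higher and 0 lower (median 0.21). Collagen genes gave 0 higher and 1 lower of 18 (median 0.33). Follicle and ligament genes gave 1 and 2 of 20 (median -0.12), and matrix protease and inhibitor genes 1 and 0 of 24 (median 0.01). The high levels of these lists over the other programmes were thus largely shared with the Spock1 cells. Tnn was at 165 CPM against 79.1 and Postn at 377 against 225.

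Several of the largest ratios came from the 11 C1q barcodes. Apoe, a lipid carrier made by macrophages, was at 4242 CPM against 147, and 93.0% of its UMIs came from the 11. In the cleaned groups its log2 ratio was 1.36 in place of 4.85, and 170 of the remaining 224 UMIs lay in the Sfrp2-rich cluster. Of 22 dissociation response genes, which switch on early in stressed cells, 9 were higher, and in the cleaned groups 1 of 21. Ier3, one of them, had a log2 ratio of 2.29, and 0.12 in the cleaned groups.

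Lower than in the Spock1 cells was Ibsp, the bone sialoprotein gene, at 18.6 CPM against 249, a log2 ratio of -3.74 (-4.63 to -2.98). It was found in 53 of the 207 Spock1 cells and in 4 of the 123. Igfbp3 was lower but within 2-fold, at 689 CPM against 1219 and a log2 ratio of -0.82. It was found in 45.5% against 78.7% of cells, before thinning and with the C1q barcodes counted. Bmp4 was at 26.6 CPM against 67.5. Efnb2, an ephrin ligand of vessels, was at 18.6 CPM against 64.7, and Tnmd at 3.99 against 25.4. Of 34 cell cycle genes 0 were higher and 17 lower (median -1.02), with Cenpf, a centromere protein, at 5.32 CPM against 50.9.

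The step that parts these 2 groups rested mainly on 1 gene and moved with depth. Epha3 (chr16:63543532-63864175), an ephrin receptor, gave 77.3% of the UMIs of the Spock1 sum in the 123 cells and 74.0% in the Spock1 cells. No UMI of Spock1, Srpx2 or Ndnf was found in 99 of the 123 cells and in 71 of the 207. Median depth was 3979 UMIs in cells with a sum of 0, 5047 at 1, 5994 at 2, 7368.5 at 3, 6395 at 4 and 8124 at 5 or more. Just inside the limit, at a sum of 2, Acta2 was at 521 CPM, and just outside, at 3, it was at 99.5, rising to 301 at 5 or more. Among the 42 cells at a sum of 2, 1 cell had 70 Acta2 UMIs and 1 had 35, so that level rested largely on few cells. Mki67 was at 11.3 CPM at a sum of 2, 16.6 at 3 and 63.8 at 5 or more. With the sum scaled to depth, 136 cells were chosen. Acta2 was then at 379 CPM against 312, Igfbp3 at 555 against 1398 and Mki67 at 56.1 against 37.6, so the order of Mki67 turned around. Only 2 of 34 cell cycle genes were then lower, beside 145 of all 8048 measured genes. Other calls ended there too, with Bmp4 at a log2 ratio of -0.10, in place of -1.34, and Cenpf at -0.26, in place of -3.26. With the split made without Epha3 Tnn had a log2 ratio of 0.05 in place of 1.06. Postn, at 0.74 by the rule, had -0.10. Ibsp stayed past 2-fold under each of these splits, at -3.31 without Epha3 and -2.85 with the scaled sum, as did Efnb2 at -1.32 and -1.41 and Tnmd at -3.47 and -2.24. The lower Igfbp3 level was thus present under both splits, and the log2 ratio of Acta2 was smaller under both, at 0.69 without Epha3 and 0.28 with the scaled sum.

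**Figure D5:**
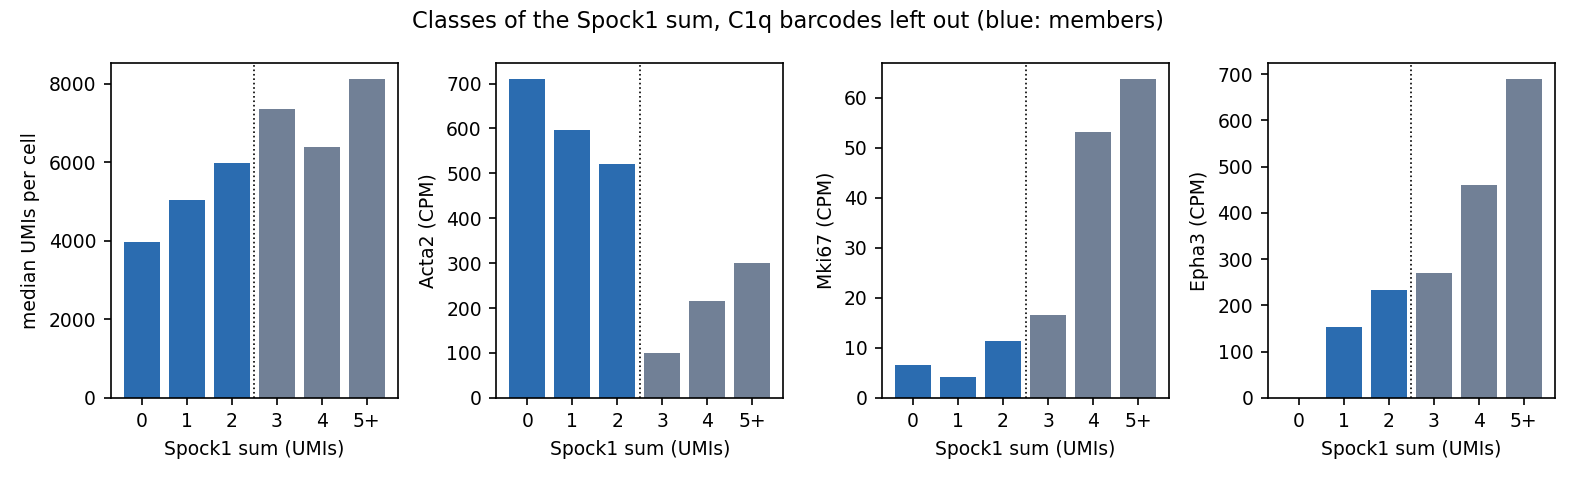
Median UMIs per cell and CPM of Acta2, Mki67 and Epha3 (y) by the summed UMIs of Spock1, Srpx2, Ndnf and Epha3 (x), without C1q barcodes. Blue bars are Ogn Igf1 cells and grey bars Spock1 cells, with a dotted line at the limit of the rule. Depth and Mki67 are lower on the left, Acta2 is highest at a sum of 0 and lowest at 3.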

How the data were processed

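The authors deposited unnormalised UMI counts per gene and barcode, including empty droplets, as 1 matrix for 2 lanes. Per the submitters' processing notes the build was mm10 and R 3.4.1 and Seurat were used. The aligner is not given in the sources used here, and no column of per-sample values was left unused (0). The cells, lists and comparisons were chosen with earlier results of these data known. Barcodes were chosen by the stated rule, counts were summed per group and scaled to CPM, and a gene needed 30 UMIs over the pair of groups to count as measured, with calls made at 2-fold. Poisson, Clopper-Pearson and conditional binomial intervals are at 95%. Scanpy 1.11.5 gave Scrublet scores and Leiden clusters (resolution 0.5, 20 components, 15 neighbours), and edgeR 4.0.16 the TMM factors. Scripts ran in Python 3.11.15 and were tested on simulated data. Named genes were the label and rule genes, up to 4 per list with the largest ratio among 27 lists, leading genes of each comparison and cluster, and 10 preset genes. Alternatives changed barcode filters, thresholds, scaling, depth and the split from the Spock1 cells. The values of some listed genes are not reported here.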

Additional observations from a re-analysis of the deposited data

How the results depend on the processing

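No paired analysis was possible because the deposited counts are 1 sample without replicates. The number of Ogn Igf1 cells was 134 by the rule, 48 with a Spock1 sum of 0, and 106 to 181 under the other alternatives. Genes higher than in the other programmes numbered 2010, 1109 after thinning and 3639 with genes of at least 1 UMI. Against the Spock1 cells the 276 higher genes became 123 with an Ogn sum of at least 8, 554 with a Spock1 sum of 0, 125 without C1q barcodes, 122 in the cleaned groups, 101 after thinning, 750 with at least 10 UMIs and 1608 with at least 1. The 272 lower genes became 804 with a Spock1 sum of 0, 165 with the split made without Epha3, 145 with the sum scaled to depth, 106 after thinning, 680 with at least 10 UMIs and 887 with at least 1. The log2 ratio of Ccl2 to the other programmes turned from 6.97 to -0.64 without C1q barcodes and -0.30 in the cleaned groups, and that of Mki67 to the Spock1 cells from -1.58 to 0.58 with the scaled sum. Filters on fewer UMIs and thinning change how many genes can be counted, and for the other settings the cause was not tested. The settings that drop C1q, neutrophil or enamel-rich barcodes, or redraw the split, were added after seeing the data. With a median of 5197.5 UMIs a gene of few CPM was not detectable in most single cells.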
